A study of Bos taurus with 9 samples.

Results

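Within rumen epithelial tissue of Holstein calves, 11734 narrow peaks carried acetylation of histone H3 at lysine 27 (H3K27ac) both before and after weaning. Before weaning they touched no peak of the other active targets profiled in this tissue. They were chosen by 4 measured values, so these describe the set and are not findings about it. A peak of the H3K27ac list before weaning was taken when it was narrower than 1000 bp, shared no base with a peak of H3K9ac (acetylation at lysine 9) before weaning, shared none with a peak of RNA polymerase II (RNA pol II) before weaning, and shared at least 1 bp with an H3K27ac peak after weaning. They are called kept H3K27ac-only peaks here. They made up 15.8% of the 74249 H3K27ac peaks before weaning (95% Wilson interval 15.5 to 16.1) and 56.7% of the 20697 H3K27ac peaks that touched one after weaning (56.0 to 57.4). The 8 peak lists of rumen tissue before and after weaning together hold 130580 peaks.

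H3K27ac is placed on nucleosomes by acetyltransferases such as p300 and CBP at active promoters and active enhancers, and histone deacetylases remove it. H3K9ac is found at active promoters, and the study associates it with enhancers as well. RNA pol II marks sites of transcription. An H3K27ac site that lacks both is often read as an enhancer away from a promoter, but their absence alone does not establish this. H3K9me3, the trimethylation of histone H3 at lysine 9, marks repressed chromatin. The rumen epithelium is a stratified layer that absorbs and metabolises the short-chain fatty acids of microbial fermentation, and it develops as a calf moves from milk to solid feed. One of these acids, butyrate, also inhibits histone deacetylases.

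The 4 targets (H3K9ac, H3K27ac, RNA pol II and H3K9me3) were each profiled by ChIP-seq, the sequencing of immunoprecipitated chromatin, in 1 library before weaning and 1 library after weaning. The labels give no age or number of calves, and 1 input library without immunoprecipitation served both time points. The H3K27ac and RNA pol II libraries were run on lane 2 and the H3K9ac libraries on lane 1 at either time point, whereas H3K9me3 moved from lane 2 before to lane 1 after weaning, so for H3K9me3 the lane cannot be told apart from weaning. With 1 library per target and time point no difference between the time points was tested, and the intervals given here cover counting error over peaks alone, although adjacent peaks depend on each other. The name enhancer could not be checked, since no enhancer-specific mark and no gene annotation on the assembly of the lists was used, and the tissue could not be checked against its marker genes for the same reason.

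The selection ran from all H3K27ac peaks to a small share of them. Of the 74249 peaks before weaning, 68723 were narrower than 1000 bp, 60871 of these touched no H3K9ac peak, and 60494 touched no RNA pol II peak either. Of these 60494 H3K27ac-only peaks, 11734 were kept, which is 19.4% (19.1 to 19.7), and 48760 were lost. Over the whole H3K27ac list before weaning 27.9% of the peaks were kept. The share was 55.8% (54.7 to 56.9) among the narrow H3K27ac peaks that touched H3K9ac before weaning and 64.2% (62.0 to 66.3) among H3K27ac-only peaks of 1000 bp or more. Narrow H3K27ac-only peaks therefore had the lowest kept share of these classes, and they supplied more than 50% of all kept peaks through their number.

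Kept H3K27ac-only peaks were wider than lost ones at the outset. Their median width before weaning was 419 bp, with 5th and 95th percentiles of 209 and 873.4 bp, whereas the lost peaks had a median of 289 bp and percentiles of 200 and 681 bp. The share kept was higher in every 100 bp step of width, in part by the rule itself, since a wider peak offers more bases for a contact of 1 bp. It was 11.0% among H3K27ac-only peaks of 200 to 299 bp (10.7 to 11.4), 25% at 400 to 499 bp (24.1 to 26.1), 37.7% at 600 to 699 bp (36.0 to 39.5) and 54.3% at 900 to 999 bp (50.9 to 57.8). With a reciprocal overlap of 50%, a setting applied by width class after seeing the data, the increase ended at 400 to 499 bp. The shares were then 7.79% (7.49 to 8.10) at 200 to 299 bp, 17.6% (16.8 to 18.5) at 400 to 499 bp and 13.5% (11.3 to 16.1) at 900 to 999 bp. Under contact of 1 bp the narrowest class contributed the most members, 3213 of 200 to 299 bp against 438 of 900 to 999 bp. At the width limit, the members just inside were 999 bp at chromosome 6, positions 59577019 to 59578017, 999 bp at chromosome 9, positions 30139273 to 30140271, and 998 bp at chromosome 10, positions 45345415 to 45346412. The kept peaks just outside it were 1000 bp at chromosome 1, positions 74166081 to 74167080, 1000 bp at chromosome 25, positions 36345594 to 36346593, and 1001 bp at chromosome 10, positions 80982634 to 80983634. On these 6 peaks the H3K27ac peaks after weaning measured 227, 854 and 413 bp inside the limit and 307, 200 and 200 bp outside it. All positions are on UMD3.1.

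After weaning the H3K27ac peak at a kept site was usually narrower than the one before. The members were touched by 11894 H3K27ac peaks after weaning, 39.1% of the 30446 in that list, with a median width of 285 bp. Over the whole H3K27ac lists the median was 343 bp before and 290 bp after weaning, so the members were wider than their list before weaning and close to it after. A total of 11216 members met 1 such peak, 509 met 2 and 9 met 3, and 121 of the peaks after weaning also touched an H3K27ac peak before weaning that was not a member. The widest peak after weaning was narrower than the member in 71.7% of cases (70.9 to 72.5) and wider in 26.6% (25.8 to 27.4), and the median ratio of its width to that of the member was 0.761. The centres of both peaks lay a median of 69 bp apart where there was 1 peak after weaning, with quartiles of 27 and 141.5 bp. Peaks after weaning covered a median of 66.5% of a member's length, with quartiles of 46.0 and 86.8%. Whole members were covered in 12.9% of cases, and less than 50% of the length was covered in 29.5%. The members spanned 5.47 Mb before weaning, of which 3.32 Mb was acetylated at both time points.

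**Figure D1:**
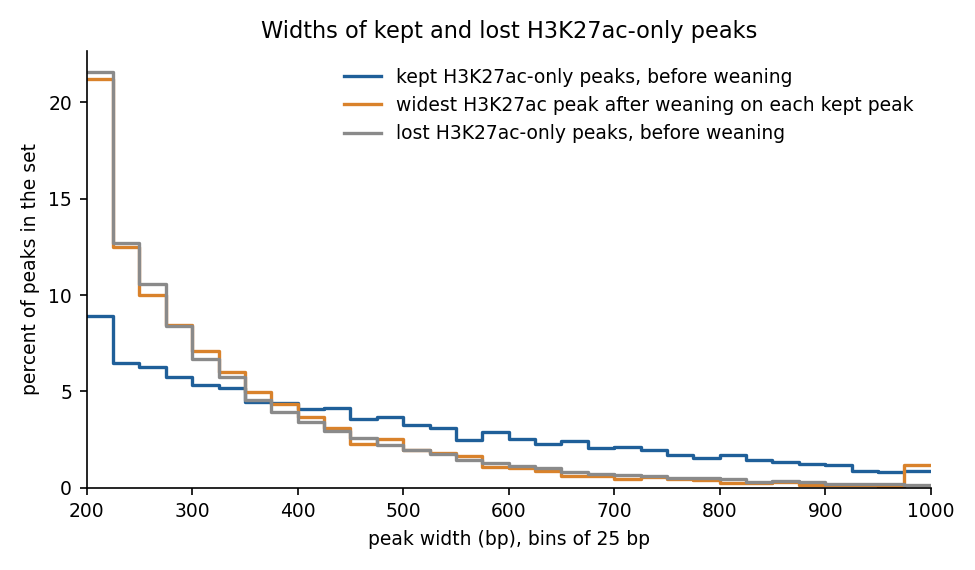
Percent of peaks (y axis) by peak width in bp (x axis, bins of 25 bp) for the 11734 kept H3K27ac-only peaks before weaning (blue), the widest H3K27ac peak after weaning on each of them (orange) and the 48760 lost H3K27ac-only peaks before weaning (grey). The last bin also holds peaks after weaning of 1000 bp or more. The blue curve is the flattest, with a median of 419 bp, and the orange curve lies close to the grey one, with medians of 293 and 289 bp.

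Some members widened, and a few overlaps were minimal. The widest H3K27ac peak after weaning on any member measured 2148 bp, at chromosome 3, positions 14587388 to 14589535. It touched 2 members, of 260 bp at positions 14588859 to 14589118 and of 344 bp at positions 14589204 to 14589547. The next widest measured 2050 bp at chromosome 5, positions 26157045 to 26159094, and contained 3 whole members of 664, 200 and 463 bp. At these sites several separate narrow peaks before weaning corresponded to 1 broad peak after weaning, with a greater width after weaning. At the other end, 2 members shared only 1 bp with a peak after weaning, one on chromosome 20 (positions 4642508 to 4643086) and one on chromosome 5 (positions 118054053 to 118054346). Contacts of under 10 bp were seen at 31 members, and of under 50 bp at 229.

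H3K9ac after weaning is a list that the choice of the peaks did not use. It is not free of that choice, since members had to carry H3K27ac after weaning and lost peaks had to lack it, and the share with H3K9ac moved with the width of the H3K27ac peak after weaning, as given further on. By the rule no member touched H3K9ac before weaning, and 328 members touched an H3K9ac peak after weaning, which is 2.80% (2.51 to 3.11). The background was 2.01% over all H3K27ac peaks before weaning and 0.818% over all narrow H3K27ac-only peaks, kept and lost. Among lost H3K27ac-only peaks the share was 0.342% (0.294 to 0.398), or 167 peaks. Members thus met H3K9ac after weaning more often than lost peaks, and less often than the kept peaks that had carried H3K9ac before, at 9.11% (399 of 4380), or the wide kept H3K27ac-only peaks, at 5.43% (4.29 to 6.85). With RNA pol II after weaning counted as well, members exceeded lost peaks in this share by 2.45 percentage points (2.16 to 2.77, interval from the Wilson limits). Of the H3K27ac peaks after weaning on members, 2.86% touched H3K9ac (2.57 to 3.17), below the 4.83% over that whole list (4.60 to 5.08).

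The difference from lost peaks was present at every width before weaning, while both sets still differed by the rule in H3K27ac after weaning. Among peaks of 200 to 299 bp, 2.09% of the members (1.65 to 2.64) and 0.266% of the lost peaks (0.210 to 0.336) touched H3K9ac after weaning. At 400 to 499 bp the shares were 3.30% (2.58 to 4.23) and 0.607% (0.433 to 0.851), and at 800 to 899 bp they were 4.30% (3.01 to 6.11) and 0.698% (0.299 to 1.62). In each of the 8 width steps the intervals of members and lost peaks were apart. When lost peaks were weighted to the widths of the members, 0.385% of them touched H3K9ac or RNA pol II after weaning.

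**Figure D2:**
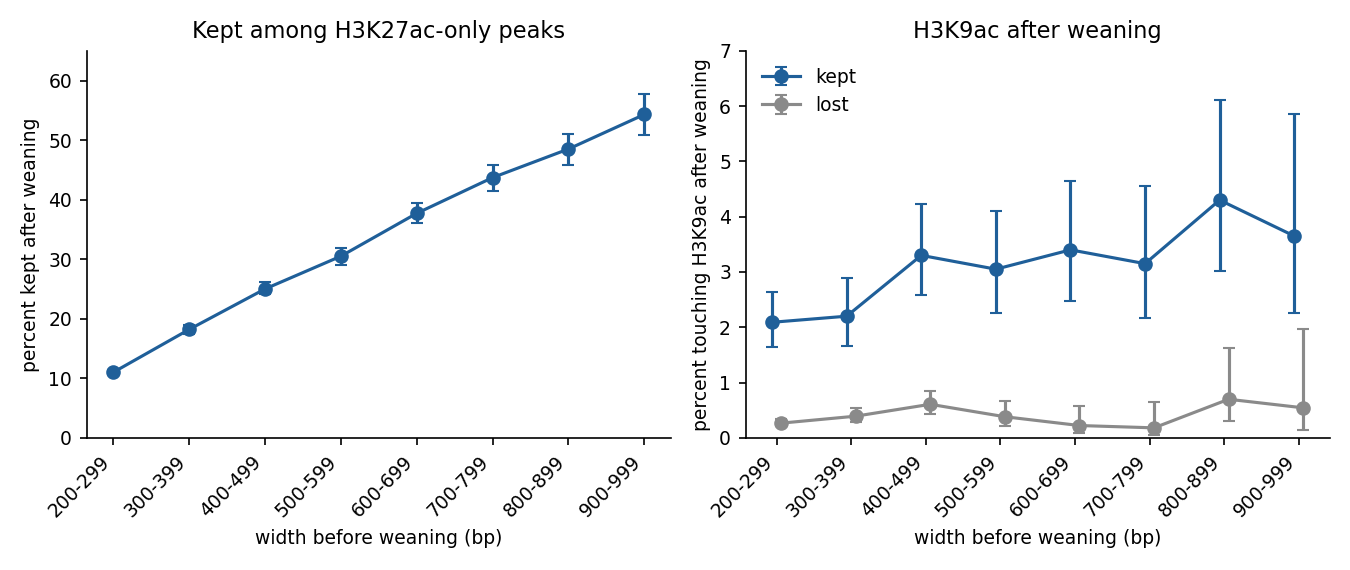
Left, percent of narrow H3K27ac-only peaks kept after weaning (y axis) by width before weaning in bp (x axis), rising from 11.0 to 54.3%. Right, percent that touched an H3K9ac peak after weaning, for kept peaks (blue, 2.09 to 4.30%) and lost peaks (grey, 0.181 to 0.698%). Points are shares of peaks within a width class, bars are 95% Wilson intervals over peaks, and there is 1 library behind each list.

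Members with H3K9ac after weaning also had the broader H3K27ac peaks at that time. Their widest H3K27ac peak after weaning had a median of 385.5 bp (366 to 407), against 291 bp (288 to 293) for the members without H3K9ac. Their own width before weaning was 481.5 bp (448 to 510) against 417 bp (411 to 423). Ordered by the width of the H3K27ac peak after weaning, the share with H3K9ac ran from 1.16% (0.874 to 1.55) at 200 to 249 bp to 4.72% (3.71 to 5.98) at 400 to 499 bp and 5.75% (4.04 to 8.14) at 700 to 2148 bp. The upper 3 of the 6 classes did not differ beyond their intervals. The distance to earlier H3K9ac had overlapping intervals, with medians of 14363 bp (11103 to 18936) for members with H3K9ac after weaning and 16390.5 bp (15586 to 17346) for those without.

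Seen from the H3K9ac list after weaning, the members touched 328 of its 2127 peaks, or 15.4% (13.9 to 17.0). Of these 328, 1 touched an H3K9ac peak before weaning, a low count that follows from the rule, which removed H3K27ac peaks in contact with H3K9ac before weaning. Of the 1185 H3K9ac peaks after weaning that touched none before, 56.3% (53.4 to 59.1) lay on an H3K27ac peak before weaning of any kind, 27.6% (25.1 to 30.2) lay on a member and 14.0% (12.1 to 16.1) on a lost H3K27ac-only peak, although lost peaks were the more numerous. These H3K9ac peaks were narrow, with a median of 236 bp. The widest on a member measured 585 bp, at chromosome 5, positions 26112579 to 26113163. It lay wholly inside a member of 850 bp, positions 26112324 to 26113173, which was 54827 bp from the nearest H3K9ac peak before weaning. The next, of 528 bp at chromosome 6, positions 59078786 to 59079313, bridged 2 members of 272 and 357 bp. The others among the 5 members with the widest H3K9ac peaks were at chromosome 19, positions 34238242 to 34238483, with an H3K9ac peak of 518 bp, and at chromosome 4, positions 76135979 to 76136321, with one of 516 bp. These were named after their values were seen. The member on chromosome 4 was 600730 bp from H3K9ac before weaning.

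RNA pol II after weaning was found on none of the members. The count was 0 of 11734, which allows a share of up to 0.0256%, against 0.0768% over all H3K27ac peaks before weaning. Among lost H3K27ac-only peaks 1 of 48760 touched RNA pol II after weaning, and among kept narrow peaks with H3K9ac before weaning 39 of 4380 did, or 0.890% (0.652 to 1.21). The RNA pol II list after weaning held 738 peaks. The labels and the study's text differ on which time point this list belongs to, and the labels were followed here. With both RNA pol II lists swapped, a setting chosen after seeing the data, the rule gave 11915 members, of which 1.52% (1.31 to 1.75) touched the RNA pol II list that then stood for after weaning, so the absence of RNA pol II rests on the labels. Of the H3K27ac peaks after weaning on members 0 of 11894 touched RNA pol II, against 0.801% (0.707 to 0.908) over the whole H3K27ac list after weaning. The rule kept RNA pol II and H3K9ac before weaning off the members. H3K27ac peaks gained after weaning, which touched none before, met RNA pol II in 2.76% of 7040 cases (2.40 to 3.16), and in 0.427% of 6789 cases (0.298 to 0.613) when those that touched H3K9ac or RNA pol II before weaning were left out as well, a setting added after seeing the data.

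H3K9me3 was nearly absent from the members at both time points. Before weaning 2 members touched an H3K9me3 peak, or 0.0170% (0.00467 to 0.0621), against 0.0741% over all H3K27ac peaks before weaning. After weaning 2 other members did, against 0.106% over the list. The whole list also holds peaks with H3K9ac before weaning, which the rule left out of the members. Among lost H3K27ac-only peaks the share was 0.0205% (0.0111 to 0.0378) before weaning and 0.0636% (0.0448 to 0.0902) after. Both intervals overlap those of the members. The pair before weaning consisted of a member on chromosome 5 (positions 118313389 to 118314239), which also touched H3K9ac after weaning, and a member on chromosome 6 (positions 103953260 to 103953778). The pair after weaning lay on chromosome 11 (positions 101807845 to 101808545) and chromosome 23 (positions 48143280 to 48143614). All 4 were named after their values were seen. At either time point 0.0341% of the members (0.0133 to 0.0876) and 0.0820% of the lost peaks (0.0603 to 0.112) touched H3K9me3, with intervals that overlap. Kept narrow peaks with H3K9ac before weaning had the higher share of 0.822% (0.594 to 1.14).

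The rule removed peaks in contact with H3K9ac before weaning and set no further distance to it. The median distance to the nearest H3K9ac peak before weaning was 16276 bp (15528 to 17244), with 5th and 95th percentiles of 248 and 305457 bp. It was 19224 bp (18798 to 19694) for lost peaks and 9460 bp (7588 to 11622) for wide kept H3K27ac-only peaks. The value depends on the peaks counted. Over peaks wider than the median of their list it was 39551 bp for members (36349 to 42022) and 44452 bp for lost peaks (43016 to 45827). The intervals of both sets overlapped in 3 other settings. They were 26366 bp (25240 to 27631) and 27079 bp (26502 to 27711) with no H3K9ac or RNA pol II within 1 kb, 19452 bp (18029 to 20540) and 20318 bp (19820 to 20889) below 500 bp, and 35405 bp (33172 to 37684) and 34798 bp (33787 to 35877) after merging peaks within 1 kb. Within 1 kb of H3K9ac lay 16.2% of the members (15.5 to 16.8) and 12.8% of the lost peaks (6260 of 48760), against 27.1% over all H3K27ac peaks before weaning, which include those in contact with H3K9ac and had a median distance of 10510 bp. Within 100 kb lay 82.5% of the members and 83.6% of all H3K27ac peaks. The median distance to RNA pol II before weaning was 300171 bp for members (292257 to 311255) and 299059 bp over all H3K27ac peaks (294374 to 303641), with overlapping intervals. For lost peaks it was 334566 bp (328533 to 340140). The nearest H3K9ac peak after weaning was at a median of 144161 bp (138197 to 149692) from members and 259118 bp (254806 to 264770) from lost peaks. It was 149871 bp for wide kept H3K27ac-only peaks, 150028 bp for kept narrow peaks with H3K9ac before weaning and 219858 bp over all H3K27ac peaks. The H3K9ac list held 14384 peaks before weaning and 2127 after, so distances before and after weaning are not comparable.

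The kept share changed little with distance beyond the first kb. It was 25% (23.7 to 26.2) for H3K27ac-only peaks within 500 bp of H3K9ac before weaning and 21.0% (19.7 to 22.4) from 501 to 1000 bp, then between 18.6 and 20.0% in each class up to 100 kb and 17.3% (16.7 to 18.0) beyond. Peaks close to H3K9ac were also wider, with a median of 352 bp within 500 bp against 293 bp beyond 100 kb. Among H3K27ac-only peaks under 300 bp the kept share lay between 9.79 and 11.8% in all 9 distance classes, with no order by distance. Among those of 500 bp or more it was 45.1% within 500 bp and between 34.5 and 40.2% in the other classes.

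**Figure D3:**
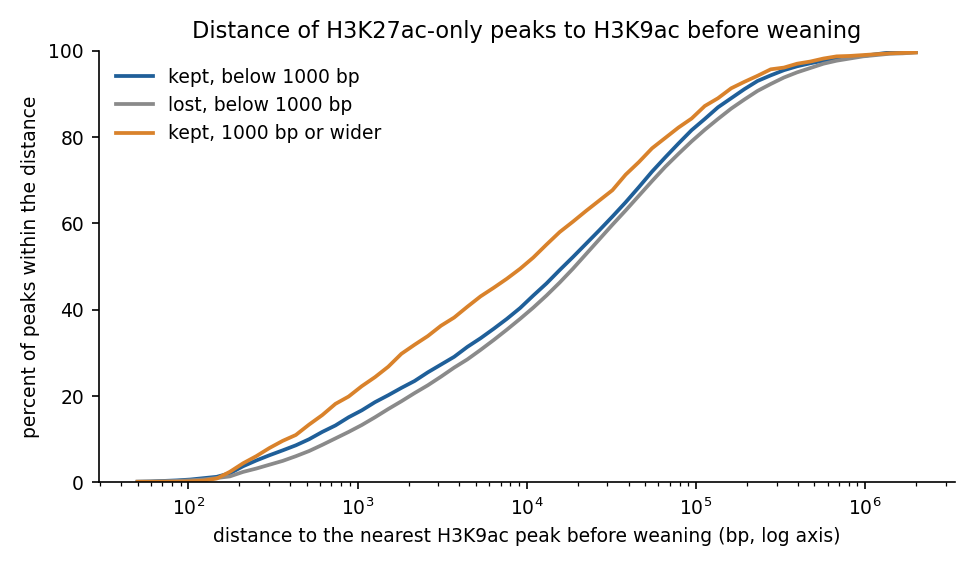
Percent of peaks (y axis) that lie within a given distance in bp (x axis, log scale) of an H3K9ac peak before weaning, for kept H3K27ac-only peaks below 1000 bp (blue), lost ones (grey) and kept ones of 1000 bp or more (orange). The medians are 16276, 19224 and 9460 bp, and the blue curve lies between the others over most of the range.

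Members had a kept neighbour more often than lost peaks did. The nearest other H3K27ac peak before weaning was a median of 297 bp from a member (285 to 311) and 491 bp from a lost peak (479 to 501). It lay within 1 kb for 70.6% of the members and 63.3% of the lost peaks. Over all H3K27ac peaks before weaning the median was 379 bp and the share 67.3%. The share was 78.4% for wide kept H3K27ac-only peaks and 81.5% for kept narrow peaks with H3K9ac before weaning. Where the nearest neighbour was within 1 kb, it was itself kept in 51.7% of cases for members (50.6 to 52.8) and in 24.9% for lost peaks (24.5 to 25.4). This comparison and its settings were added after seeing the data. With a reciprocal overlap of 50% required for a kept peak, the shares were 29.8% (28.6 to 31.1) and 14.3% (13.9 to 14.6). A peak after weaning can touch a member and its neighbour together. When the neighbour counted as kept only through a different peak after weaning, the share for members was 43.7% (42.6 to 44.7). Under that setting it was 42.7% (40.5 to 44.9) among members of 200 to 299 bp, against 24.8% (24.1 to 25.5) for lost peaks of that width, and 44.2% (42.5 to 45.8) among members of 500 bp or more, against 25.2% (24.1 to 26.4). The difference was smaller for isolated peaks, whose nearest neighbour was over 10 kb away, at 30.7% (28.1 to 33.5) and 22.7% (21.6 to 23.7). Since the choice of members used the same H3K27ac lists, these shares are descriptions.

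Another member lay within 12500 bp of 6941 members, or 59.2%. The same measure within other sets was 82.5% among the more numerous lost peaks and 90.1% over all H3K27ac peaks before weaning, so proximity of this kind is not particular to the members. Linking members across gaps of up to 12500 bp gave 2320 clusters of 2 or more and left 4793 members alone. There were 291 clusters of 5 or more, which held 1951 members, or 16.6%, and 29 of 10 or more, which held 362.

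The largest cluster by number held 38 members over 91.3 kb at chromosome 5, positions 26094672 to 26186008. It contained 49 H3K27ac peaks before weaning, of which 40 were kept, or 81.6%. Clusters were ranked by their number of kept peaks, so a high kept share follows at least in part from that choice. Over the whole H3K27ac list before weaning 27.9% were kept, and 19.4% of the narrow H3K27ac-only peaks. The members of this largest cluster were 200 to 978 bp wide, with a median of 435.5 bp, and covered 20.0% of the span. The stretch held 1 H3K9ac peak before weaning and 5 after, and 3 of its members touched H3K9ac after weaning. One of these was the member with the widest H3K9ac peak, and another lay under the H3K27ac peak of 2050 bp. No RNA pol II peak lay in the stretch at either time point, and 1 H3K9me3 peak was present before weaning.

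**Figure D4:**
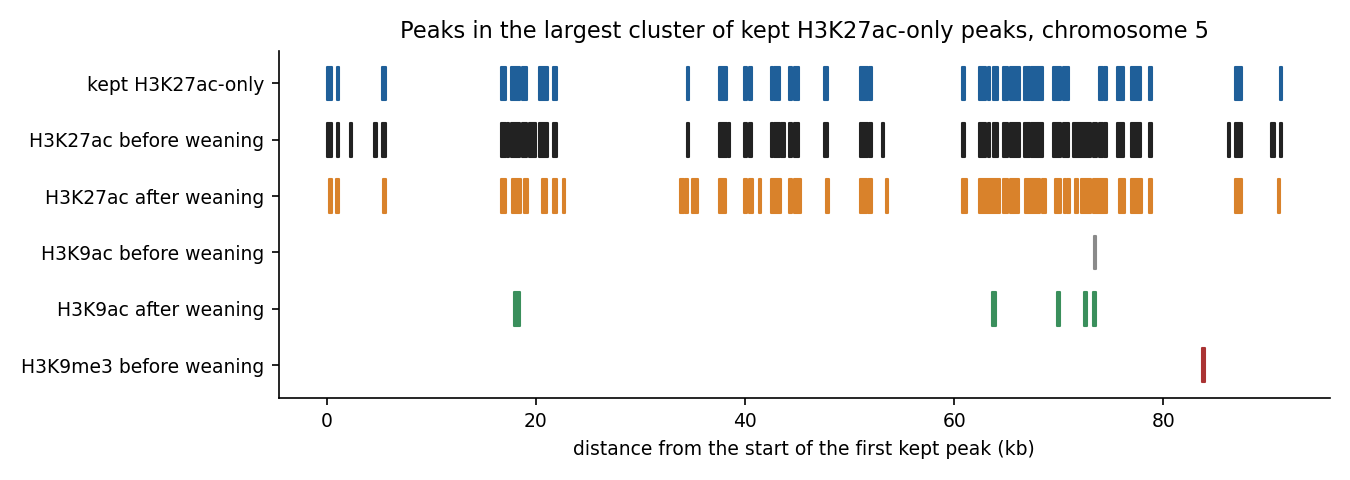
Peaks in the cluster of 38 kept H3K27ac-only peaks on chromosome 5, drawn to scale as distance in kb from the start of its first member (x axis), with 1 row per set of peaks. Most of the 49 H3K27ac peaks before weaning have a counterpart among the 40 after weaning, whereas the rows of H3K9ac (1 before and 5 after weaning) and H3K9me3 (1 before) are nearly empty.

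The next clusters by number of members were smaller, and 3 of them tied at 13 members, so all 3 are given. These clusters were also ranked by kept peaks, so their kept counts follow at least in part from that choice. Over all H3K27ac peaks before weaning 27.9% were kept. At chromosome 5, positions 104513660 to 104555595, there were 19 members, and 21 of 27 H3K27ac peaks were kept. At chromosome 21, positions 33553725 to 33591819, there were 16 members, and 18 of 20 H3K27ac peaks were kept. At chromosome 5, positions 75133046 to 75170625, there were 15 members, and 17 of 24 were kept. The 3 clusters of 13 members were at chromosome 10, positions 80746660 to 80823126, where 18 of 31 H3K27ac peaks were kept, at chromosome 16, positions 45807149 to 45846727, where 15 of 19 were kept, and at chromosome 2, positions 126345016 to 126388501, where 13 of 26 were kept. H3K9ac peaks numbered 8 before weaning and 0 after in the stretch on chromosome 10, and 4 and 0 on chromosome 16. The other 4 stretches held 0 to 2 before and 1 or 2 after. The whole H3K9ac list held 14384 peaks before weaning and 2127 after. None of these 6 stretches held RNA pol II or H3K9me3 at either time point.

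Members were found on all 30 chromosomes of the lists, at 4.41 per Mb overall. The density ran from 0.820 per Mb on X, with 122 members, to 11.0 per Mb on chromosome 19, with 705. All H3K27ac peaks before weaning had the same extremes, with 7.38 per Mb on X and 66.9 per Mb on chromosome 19, and members were 16.5% of them on chromosome 19, close to the 15.8% over the whole list, and 11.1% on X. The kept share among H3K27ac-only peaks was far more even. It lay between 16.2% on chromosome 4 (14.5 to 18.0) and 21.9% on chromosome 18 (20.4 to 23.5), except for 11.1% on chromosome 27 (9.14 to 13.5) and 12.2% on X (10.3 to 14.4). The 122 members on X were also the widest, with a median of 537.5 bp, against 372.5 to 456 bp on the others. H3K9ac after weaning touched 5.57% of the members on chromosome 29 (3.46 to 8.86), or 16 of 287, and 1.34% on chromosome 14 (0.521 to 3.39). These are the extremes of 30 chromosomes, against 2.80% over all members. The interval of every chromosome except chromosome 29 included 2.80%. At the scale of 1 Mb, 1740 of 2675 bins held a member, with a median of 4 in those bins and a maximum of 48 on chromosome 5, positions 26000001 to 27000000, which held 122 H3K27ac peaks before weaning in all and contains the largest cluster.

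**Figure D5:**
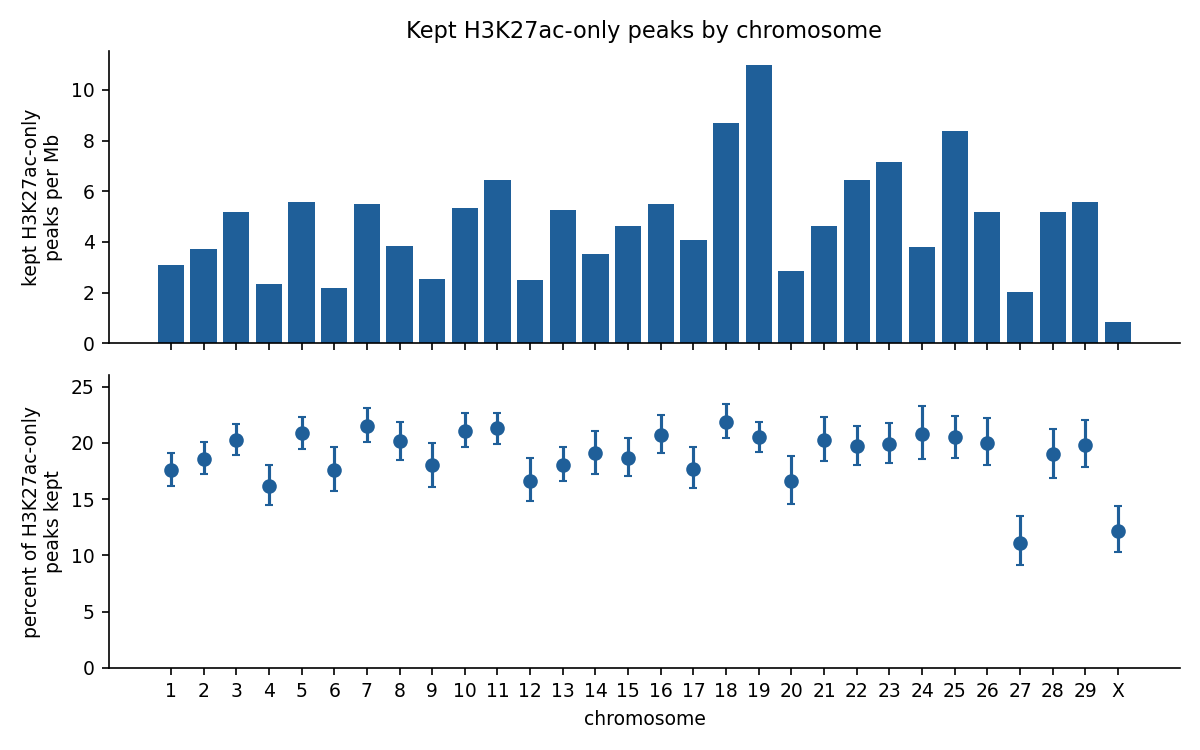
Kept H3K27ac-only peaks per Mb of chromosome (upper panel, bars from 0) and percent of H3K27ac-only peaks kept (lower panel, points with 95% Wilson intervals over peaks) for chromosomes 1 to 29 and X (x axis). Density is highest on chromosome 19 (11.0 per Mb) and lowest on X (0.820 per Mb), and the kept share is lowest on chromosome 27 and X.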

How the data were processed

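The authors removed reads that failed the sequencer's filter, aligned the rest to the cattle assembly UMD3.1.1 with BWA at default settings, kept unique alignments with few mismatches and called peaks with MACS2 against 1 input (the submitters' notes also name Trim Galore 0.4.1 and the build UMD3.1). The deposited values are peak starts and ends in bp, with no height, fold or p-value, so width stood in for strength and read depth was not used. Positions were read as 1-based with both ends included. Time points came from the labels. Members, classes and named regions were chosen with earlier results of these data known. Regions named by rule were the 5 members under the widest H3K27ac peaks after weaning, members touching both H3K9ac and RNA pol II after weaning (there were 0), the 5 clusters with most members (7 with ties), 3 kept peaks on each side of the width limit, and the shortest overlap. Shares have 95% Wilson intervals, medians order-statistic intervals, and 0 counts a limit of 3 counts. Overlap code was tested on simulated data (Python 3.11.15, pandas 2.3.3, scipy 1.17.1). Genes, motifs, base composition and sequences were not analysed here, because the reference table given is on another assembly.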

Additional observations from a re-analysis of the deposited data

How the results depend on the processing

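The results were recomputed under 10 alternatives of the rule and a few of their own, except that the share with a kept neighbour, whose alternatives were all added after seeing the data, has no value after merging. Counts were taken as moved beyond a factor of 1.5, and shares and medians outside their 95% interval, which is narrow with this many peaks. RNA pol II after weaning touched 0 members under every alternative except the swap of both RNA pol II lists, added after seeing the data, which gave 1.52% and a difference from lost peaks of 3.55 points. That difference was above 0 under each alternative that did not remove it by construction. The cause of a shift was not tested beyond the peaks each setting leaves out. Results on genes, promoters and sequence were not run. No paired analysis was possible because each group holds 1 library.

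A reciprocal overlap of 50% gave 7265 members, a kept share of 12.0%, median widths of 370 bp before and 310 bp after weaning, 48.1% with another member within 12500 bp and 29.8% with a kept neighbour within 1 kb. A limit of 500 bp gave 7300 members, 14.9% kept, medians of 317 and 275 bp, 2.42% with H3K9ac after weaning, a difference from lost peaks of 2.08 points, a median of 19452 bp to H3K9ac before weaning, 50.9% with a member near and 54.0% with a kept neighbour. Pairs of widths are medians before and after weaning, and distances are to H3K9ac before weaning. A limit of 2000 bp gave 20.7% kept, 450 and 289 bp, and 60.4% with another member near. With no H3K9ac or RNA pol II within 1 kb, 18.8% were kept, the median width was 405 bp, the distance 26366 bp, with 57.8% having a member near and 47.0% a kept neighbour. With neither mark at either time point, 19.0% were kept and H3K9ac after weaning and the difference were 0 by construction.

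Merging peaks within 1 kb left 4133 members, 17.2% kept, 426 and 315 bp, 3.46% with H3K9ac after weaning, a difference of 3.02 points, a distance of 35405 bp and 25.7% with a member near, and no neighbour within 1 kb. Leaving out peaks of the lowest width gave 18.9% kept, 435 and 299 bp, a distance of 19023 bp and 58.0% with a member near. Peaks wider than the median of their list gave 5189 members, 18.6% kept, 594 and 401 bp, a distance of 39551 bp, 40.8% with a member near and 48.2% with a kept neighbour. Without H3K27ac peaks on H3K9me3 the H3K9me3 share was 0 by construction. Neighbour distances of 5 and 25 kb gave 48.5% and 68.6% with a member near. The neighbour kept through its own peak after weaning, added after seeing the data, gave 43.7% with a kept neighbour. Weighting lost peaks by width left the difference at 2.41 points.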

Other observations

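H3K27ac peaks gained after weaning, which touched none before, were set against the positions of the peaks before weaning. Of these 7040 peaks, 16.4% were within 1 kb of a kept H3K27ac-only peak (15.5 to 17.3) and 47.5% within 12500 bp (46.4 to 48.7), at a median distance of 14782 bp. The shares were 18.2% (17.4 to 19.2) and 59.7% (58.5 to 60.8) for the more numerous lost H3K27ac-only peaks, and 34.0% (32.9 to 35.1) and 74.3% (73.3 to 75.3) for any H3K27ac peak before weaning, so nearness was not particular to kept peaks. They were narrow, with a median of 244 bp against 285 bp for the H3K27ac peaks after weaning on kept sites. H3K9ac after weaning touched 3.15% of the gained peaks (2.77 to 3.59) and 2.86% of the peaks on kept sites (2.57 to 3.17), both below the 4.83% over all H3K27ac peaks after weaning (4.60 to 5.08). Kept sites had been chosen to lack H3K9ac and RNA pol II before weaning, and among the 6789 gained peaks that also lacked both, H3K9ac after weaning touched 1.33% (1.08 to 1.63). H3K9me3 after weaning touched 3.01% of all gained peaks (2.64 to 3.44), 0.663% of those 6789 (0.496 to 0.886) and 1 of the 11894 peaks on kept sites, against 0.821% over all H3K27ac peaks after weaning (0.726 to 0.929).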
